A study of Mus musculus with 9 samples.

Results

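The Notch pathway was described across 3 mouse squamous cell carcinoma (SCC) cell lines by 10 genes chosen by name: the receptors *Notch1*, *Notch2*, *Notch3* and *Notch4*, the ligands *Jag1*, *Jag2* and *Dll1*, and the target genes *Hes1*, *Hey1* and *Heyl*. The gene table held 19044 Ensembl identifiers, among them 9 of these 10 genes, and *Heyl* had no row. RNA-seq compared FAK-WT, FAK-/- and FAK-kd cells, each with 3 biological replicates, to ask which transcripts depend on focal adhesion kinase (FAK, the product of *Ptk2*) and on its kinase activity. FAK is a tyrosine kinase of integrin adhesions that also acts in the nucleus. All 3 cell lines come from chemically induced skin tumours of FVB mice with floxed *FAK* alleles and a keratin-driven, tamoxifen-activated Cre (K14CreER). Tumour cells were cultured with 4-hydroxytamoxifen to delete the gene, and this deletion is shared by every library. FAK-/- cells carry no replacement, whereas FAK-WT and FAK-kd cells stably express wild-type or kinase-deficient FAK from a retrovirus under hygromycin selection. Both constructs were put into a single FAK-/- clone, so an effect of the construct and of the selected culture cannot be told apart.

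Notch receptors are transmembrane proteins that bind Jagged or Delta-like ligands on neighbouring cells. Binding exposes the receptor to an ADAM protease and then to gamma-secretase, which releases the intracellular domain. This domain enters the nucleus, joins the DNA-binding protein RBPJ and a Mastermind-like coactivator, and turns on targets that include the Hes and Hey repressors and *Nrarp*, an inhibitor of the same complex. In skin, Notch signalling is known for driving keratinocytes from proliferation towards differentiation. These data hold transcript levels only, so receptor cleavage and RBPJ occupancy were not measured.

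The genes sit at different loci, with coordinates from the GENCODE annotation of GRCm38. *Notch1* (ENSMUSG00000026923) lies at chr2:26457903-26516663 on the minus strand and *Notch2* (ENSMUSG00000027878) at chr3:98013527-98150361 on the plus strand. *Jag1* (ENSMUSG00000027276) is at chr2:137081456-137116644 and *Dll1* (ENSMUSG00000014773) at chr17:15367354-15376872, both on the minus strand. *Hey1* (ENSMUSG00000040289) spans chr3:8663359-8667256, also on the minus strand. RefSeq promoter windows of GRCm38.p6 were at hand for 7 of the 10 genes, and not for *Hes1*, *Hey1* and *Heyl*. They are shown for the receptor whose level differed most, for the receptor whose level differed least, for a Notch-modifying gene that holds RBPJ letters and for a *Dll1* start that holds AP-1 letters. Each line gives the 250 bases before the transcription start, read 5′ to 3′ on the gene's own strand, and capitals mark a match to a searched motif. The *Notch1* window, chr2:26503823-26504072, lies 12841 bases inside the longer GENCODE gene model, where 248 of its bases are intronic. The *Notch2* window is chr3:98013288-98013537, and its last 11 bases fall in the first GENCODE exon. The *Lfng* window is chr5:140607091-140607340 on the plus strand, and its last 21 bases are exonic. The *Dll1* window, chr17:15376933-15377182, lies upstream of the GENCODE gene model.
Notch1: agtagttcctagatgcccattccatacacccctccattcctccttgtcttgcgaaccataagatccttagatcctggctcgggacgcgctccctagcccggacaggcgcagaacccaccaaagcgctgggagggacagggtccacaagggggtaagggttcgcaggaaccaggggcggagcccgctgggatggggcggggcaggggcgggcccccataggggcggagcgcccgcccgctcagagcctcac
Notch2: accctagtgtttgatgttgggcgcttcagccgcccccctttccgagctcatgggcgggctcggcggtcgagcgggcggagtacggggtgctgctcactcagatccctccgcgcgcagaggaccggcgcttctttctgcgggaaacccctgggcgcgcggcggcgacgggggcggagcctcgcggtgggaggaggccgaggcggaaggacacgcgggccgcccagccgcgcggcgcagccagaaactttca
Lfng: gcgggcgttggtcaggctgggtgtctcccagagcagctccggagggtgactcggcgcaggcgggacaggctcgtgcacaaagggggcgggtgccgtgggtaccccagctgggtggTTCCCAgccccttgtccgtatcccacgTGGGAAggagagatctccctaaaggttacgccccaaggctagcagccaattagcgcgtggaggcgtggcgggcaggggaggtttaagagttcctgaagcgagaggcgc
Dll1: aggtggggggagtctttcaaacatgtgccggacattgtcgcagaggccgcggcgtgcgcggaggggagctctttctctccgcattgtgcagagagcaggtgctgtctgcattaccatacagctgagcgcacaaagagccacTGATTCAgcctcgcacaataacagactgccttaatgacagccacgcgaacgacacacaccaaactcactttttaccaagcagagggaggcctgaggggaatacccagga

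The RBPJ core was searched as TGGGAA or its reverse complement TTCCCA, and AP-1 as TGANTCA, both on either strand. The paper describes c-Jun as a component of AP-1. The c-Jun site it tested at the *Il33* enhancer was a cAMP response element, which the letters TGANTCA cannot match. That element was not searched here, so windows without an AP-1 match may still hold it. No window shown held an RBPJ and an AP-1 match together. Among 32851 RefSeq windows of this length, 21.6% held an RBPJ core and 6.75% held the AP-1 letters. The receptor promoters held neither motif, nor did those of *Jag1* and *Jag2*. *Dll1* held 1 AP-1 match, from -109 to -103 of 1 of its 2 starts, and no RBPJ core. *Lfng* held 2 RBPJ cores, from -135 to -130 and from -108 to -103. Among the other pathway genes searched, *Rbpj* and *Hey2* also held an RBPJ core, whereas *Nrarp*, *Hes6* and *Dll4* held neither motif. A match of letters describes the window and is not a binding site.

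The libraries held 25304994 to 37264636 counts, except FAK-WT replicate 1, which held 779755, or 2.31% of the median of the others. A floor of 3 counts corresponds to 3.78 CPM (the unit used for levels of single genes, counts per 1000000 of the TMM-scaled library total) in that library and to between 0.0798 and 0.118 CPM elsewhere. For genes below this level FAK-WT therefore rests on 2 libraries. FAK-/- replicate 3 stood apart from its group, with a root mean square log2 deviation of 0.428 over 8649 genes against 0.217 and 0.248 for the other FAK-/- libraries. *Ptk2* matched the labels, at 213 to 216 CPM in FAK-WT libraries, 19.6 to 23.5 in FAK-/- and 155 to 176 in FAK-kd libraries. It was higher in FAK-WT than in FAK-kd cells by 0.40 ± 0.08 on the log2 scale (SE, edgeR adjusted p = 0.00163). An effect of kinase activity and of *Ptk2* transcript level thus cannot be told apart between these lines. Most keratinocyte markers were scarce or absent. Of 8 basal markers 6 had a row, *Trp63* and *Epcam* had none, and 2 reached a mean of 1 CPM in any line. Of 14 differentiation genes 10 had a row and 3 reached that level. *Krt5* reached at most 0.115 CPM, *Krt14* 0.240 and *Cdh1* 0.128, whereas the integrin gene *Itga6* lay between 169 and 297 CPM and the mesenchymal filament gene *Vim* between 6859 and 8143 CPM. The lines are therefore called by their FAK status below.

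Of the 9 genes measured, *Notch1* and *Hey1* were lower in FAK-WT cells than in either other line, and none was higher. *Notch2*, the most abundant receptor, differed little between the lines, and *Jag1* and *Dll1* were highest in FAK-/- cells. The threshold for calling a gene was an adjusted p no higher than 0.05 together with a log2 fold change of 1 or more in either direction. In FAK-WT over FAK-/- cells 2 of 9 genes were past it, both lower, where 3.06% of all genes were lower and 5.38% passed in either direction. FAK-WT over FAK-kd also gave 2 lower genes, beside 2.89% lower and 5.26% in either direction among all genes. In FAK-kd over FAK-/- cells edgeR called 0 of the 9, as did DESeq2, beside 2.01% of all genes, and 3 genes had an unadjusted p under 0.05 beside 20.4% of all genes. Only 5 of the genes (*Notch1*, *Notch2*, *Jag1*, *Dll1* and *Hey1*) passed edgeR's filter on low counts, which was not applied in the fit reported. The genes were chosen with earlier results of these data known, so the shares beside these counts are description and not a test.

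**Figure D1:**
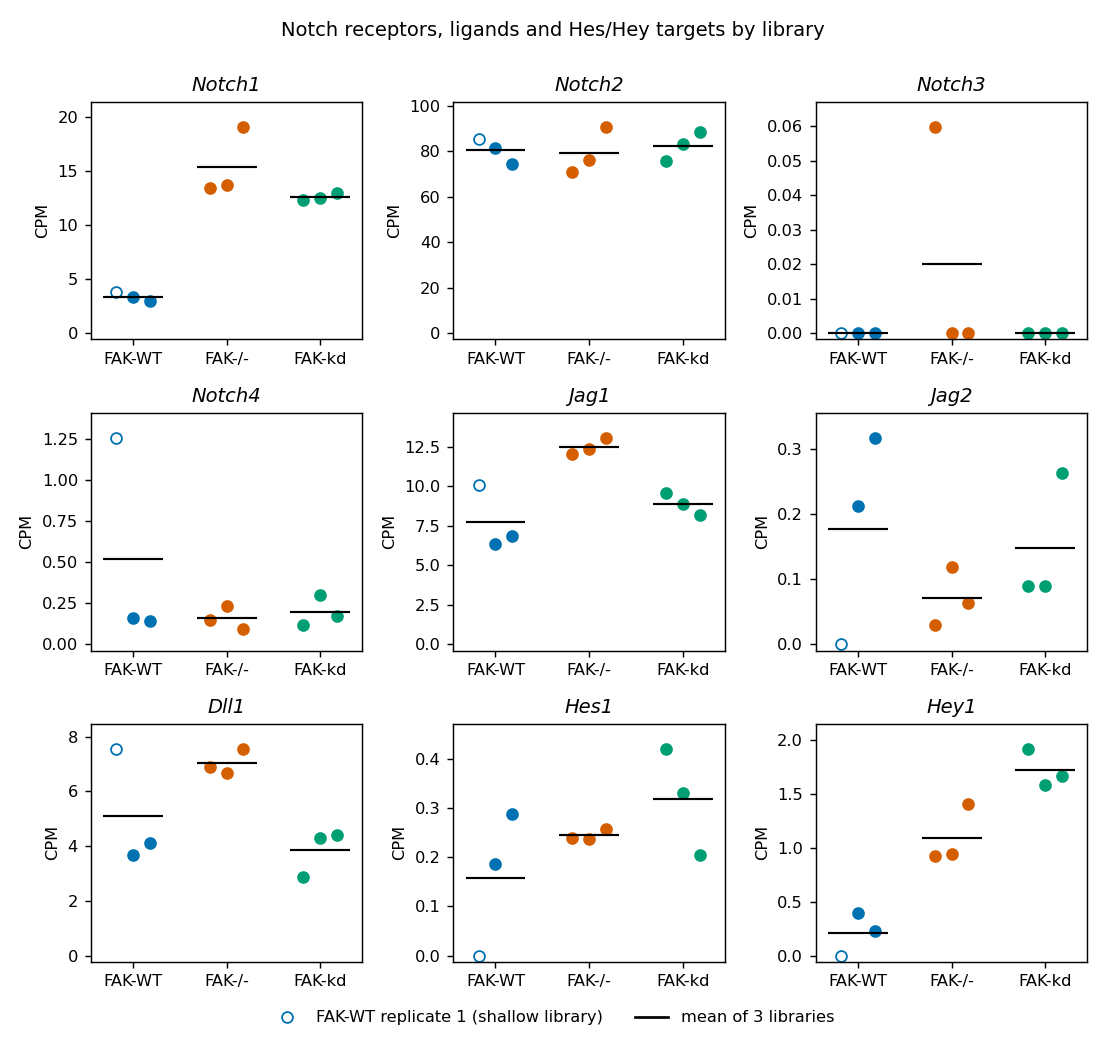
CPM (TMM-scaled, linear axis) of the 9 measured Notch genes in each library, grouped by cell line; bars mark the mean of 3 libraries and the open circle is FAK-WT replicate 1, the shallow library. All 3 FAK-WT points of *Notch1* (2.94 to 3.78 CPM) lie below all points of the other lines (12.4 to 19.1 CPM), whereas the lines overlap for *Notch2*.

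*Notch1*, a receptor with a well-known role in epidermal differentiation, gave 3.78, 3.35 and 2.94 CPM in FAK-WT replicates 1 to 3. The first value rests on 3 counts, with an exact Poisson 95% interval of 0.779 to 11.0 CPM, and the others on 126 and 102 counts. FAK-/- libraries gave 13.4, 13.8 and 19.1 CPM. FAK-kd libraries gave 12.4, 12.5 and 13.0 CPM. Every FAK-WT library was thus below every library of the other lines, and the FAK-kd libraries lay close together just below the lowest FAK-/- library. Relative to FAK-/- cells the log2 fold change in FAK-WT cells was -2.28 ± 0.17 (SE, n = 3 per line, 95% interval -2.64 to -1.93), a 4.87-fold lower level with an edgeR adjusted p of 1.22e-07. Against FAK-kd cells it was -1.99 ± 0.16, or 3.98-fold lower (adjusted p = 5.50e-07). Between FAK-kd and FAK-/- cells *Notch1* had a log2 fold change of -0.29 ± 0.13 (adjusted p = 0.225). This last value was -0.11 without FAK-/- replicate 3, the library with the highest *Notch1*. An exact two-sided permutation test on CPM gave p = 0.1 for *Notch1* in each pair of lines, the smallest p that 3 libraries against 3 allow.

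*Notch2*, which encodes a receptor of the same architecture, was measured more deeply than any other member and was the only one with at least 10 counts in every library. Its levels were 85.6, 81.6 and 74.4 CPM in FAK-WT libraries, 70.9, 76.0 and 90.8 in FAK-/- and 75.8, 83.0 and 88.2 in FAK-kd libraries. The 3 lines overlapped throughout. Its log2 fold change was -0.00 ± 0.10 in FAK-WT over FAK-/- cells (95% interval -0.21 to 0.21), -0.06 ± 0.10 for FAK-WT over FAK-kd and 0.06 ± 0.09 for FAK-kd over FAK-/- cells. The 95% intervals all lay within a 2-fold difference in either direction, and the sign of so small a value moved with the scaling. About 4.28% of *Notch2*'s 31-base words also occur in transcripts of another gene.

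The balance of the 2 expressed receptors differed between the lines. *Notch1* made up 4.23%, 3.95% and 3.80% of the summed *Notch1* and *Notch2* counts in FAK-WT replicates 1 to 3. In FAK-/- libraries the share was 15.9%, 15.3% and 17.4%. In FAK-kd libraries it was 14.0%, 13.1% and 12.8%. The shallow FAK-WT library had a Wilson 95% interval of 1.45% to 11.7%, which stayed below the lowest share in any FAK-/- or FAK-kd library. Both counts of a share come from the same library, so its depth cancels, and the share does not depend on the normalization. The interval covers counting error only.

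*Notch3* and *Notch4*, receptors best known from mural cells and from endothelium, were near the detection limit. *Notch3* had 2 counts in FAK-/- replicate 1 and 0 in the other 8 libraries. *Notch4* had between 1 and 10 counts per library, which came to 0.144 to 0.160 CPM in the 2 deep FAK-WT libraries, 0.0960 to 0.237 in FAK-/- and 0.120 to 0.300 in FAK-kd cells. The 1 count of *Notch4* in FAK-WT replicate 1 scaled to 1.26 CPM. A difference in either receptor was not detectable at this depth.

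**Figure D2:**
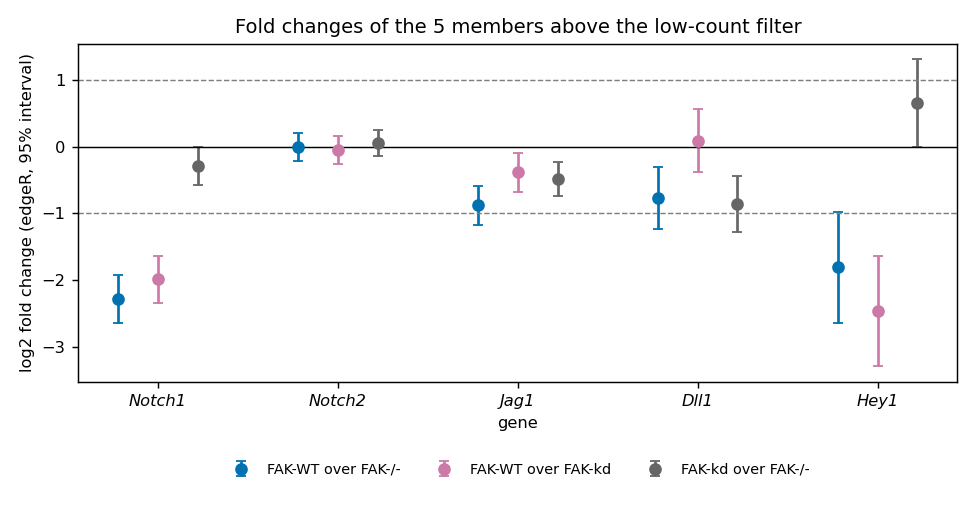
Log2 fold change (edgeR, y axis) of the 5 members that passed the low-count filter, in 3 comparisons, with 95% intervals; dashed lines mark the fold-change threshold of 1. *Notch1* and *Hey1* lie beyond -1 in both comparisons of FAK-WT cells, and *Notch2* lies at 0 in all 3.

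*Jag1*, a Jagged ligand, was highest in FAK-/- cells. FAK-/- libraries gave 12.0, 12.4 and 13.1 CPM. FAK-kd libraries gave 9.56, 8.87 and 8.20 CPM, all below the FAK-/- libraries. FAK-WT libraries gave 10.1, 6.33 and 6.86 CPM, the first from 8 counts, so that FAK-WT lay below FAK-/- cells but overlapped FAK-kd cells. Its log2 fold change was -0.88 ± 0.14 in FAK-WT over FAK-/- cells (edgeR adjusted p = 0.000259) and -0.49 ± 0.12 for FAK-kd over FAK-/- cells (adjusted p = 0.0194). Both passed the adjusted p and neither reached the fold minimum. The second adjusted p was 0.118 without FAK-kd replicate 3 and 0.0916 without FAK-kd replicate 2. Between FAK-WT and FAK-kd cells *Jag1* had a log2 fold change of -0.39 ± 0.14 (adjusted p = 0.0621), and the adjusted p was 0.0248 without FAK-WT replicate 1 and 0.0152 without FAK-/- replicate 3.

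The Delta-like ligand gene *Dll1* showed a similar order with 1 library as the exception. It was measured at 6.89, 6.66 and 7.56 CPM in FAK-/- and at 2.88, 4.31 and 4.39 CPM in FAK-kd cells, which did not overlap. FAK-WT libraries gave 7.55, 3.67 and 4.12 CPM. The first of these came from 6 counts with an exact Poisson interval of 2.77 to 16.4 CPM, and the 2 deep FAK-WT libraries lay below all FAK-/- libraries. *Dll1* was lower by a log2 fold change of -0.87 ± 0.20 in FAK-kd over FAK-/- cells (adjusted p = 0.0126) and -0.78 ± 0.22 in FAK-WT over FAK-/- cells (adjusted p = 0.0218). Leaving out FAK-WT replicate 2 or 3 took the second adjusted p to 0.207 or 0.128, and leaving out FAK-kd replicate 1 took the first to 0.0539. FAK-WT over FAK-kd was 0.09 ± 0.22, with a 95% interval of -0.38 to 0.56.

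By adjusted p alone, FAK-WT cells had 4 of the 9 genes at a lower level than FAK-/- cells (*Notch1*, *Jag1*, *Dll1* and *Hey1*), beside 9.96% of all genes. The same rule gave 2 lower genes in FAK-WT over FAK-kd (*Notch1* and *Hey1*), beside 10.2%, and 2 lower in FAK-kd over FAK-/- cells (*Jag1* and *Dll1*), beside 3.88%. These comparisons share libraries. Without any overlap between libraries, 3 genes were lower in FAK-WT over FAK-/- cells (*Notch1*, *Jag1* and *Hey1*, beside 17.5% of all genes), 2 in FAK-WT over FAK-kd (*Notch1* and *Hey1*, beside 19.7%) and 3 in FAK-kd over FAK-/- cells (*Notch1*, *Jag1* and *Dll1*, beside 12.6%). *Jag2*, the other Jagged ligand measured, had 0, 8 and 11 counts in FAK-WT, 1, 3 and 2 in FAK-/- and 3, 3 and 9 in FAK-kd libraries. No library exceeded 0.317 CPM, and the lines overlapped.

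*Hey1*, which encodes a bHLH repressor induced by Notch, was the target gene with a difference between the lines. FAK-kd libraries gave 1.92, 1.59 and 1.67 CPM on 64, 53 and 57 counts. FAK-/- libraries gave 0.929, 0.946 and 1.41 CPM on 31, 24 and 44 counts. FAK-WT libraries gave 0, 0.399 and 0.231 CPM on 0, 15 and 8 counts. The lines followed each other without overlap from FAK-WT to FAK-/- to FAK-kd. The count of 0 in FAK-WT replicate 1 has an exact Poisson 95% upper limit of 4.64 CPM, above every other *Hey1* value, and adds nothing to this order. *Hey1* had a log2 fold change of -1.81 ± 0.39 in FAK-WT over FAK-/- cells (95% interval -2.65 to -0.98, edgeR adjusted p = 0.00408) and -2.46 ± 0.39 for FAK-WT over FAK-kd cells (adjusted p = 0.000302). The first call was lost without FAK-WT replicate 3, at -1.51 with an adjusted p of 0.0728. FAK-kd over FAK-/- gave 0.65 ± 0.31, and although the libraries did not overlap (12.8% of all genes were higher without overlap here) the adjusted p was 0.246. *Hes1*, the Hes repressor most often read as a Notch target, was scarce, at 0, 0.186 and 0.288 CPM in FAK-WT libraries, 0.240, 0.237 and 0.256 in FAK-/- and 0.420, 0.330 and 0.205 in FAK-kd libraries. It rested on at most 14 counts in any library, and the lines overlapped.

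Levels were set side by side per kilobase of the longest coding transcript and scaled so that all genes of a library sum to 1000000. On this scale *Notch2* led in every line, at 17.0 ± 1.36 in FAK-WT libraries, 16.0 ± 1.81 in FAK-/- and 16.9 ± 1.79 in FAK-kd libraries (SD, n = 3). In FAK-/- cells *Jag1* followed at 4.73 ± 0.13, then *Dll1* at 4.18 ± 0.19 and *Notch1* at 3.45 ± 0.65. The libraries of *Dll1* and *Notch1* overlapped there, whereas those of *Jag1* and *Dll1* did not. In FAK-kd cells the order was *Jag1* at 3.39 ± 0.17, *Notch1* at 2.86 ± 0.16 and *Dll1* at 2.33 ± 0.58. In FAK-WT cells *Notch1* stood at 0.782 ± 0.105, behind *Dll1* at 3.16 ± 1.33 and *Jag1* at 3.06 ± 0.82, which overlapped each other. *Hey1* stood at 0.958 ± 0.218 in FAK-/- and 1.53 ± 0.10 in FAK-kd cells, above *Hes1* at 0.354 ± 0.008 and 0.463 ± 0.144. *Notch4*, *Jag2* and *Notch3* came last in each line, and *Notch4* and *Jag2* overlapped in all 3.

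**Figure D3:**
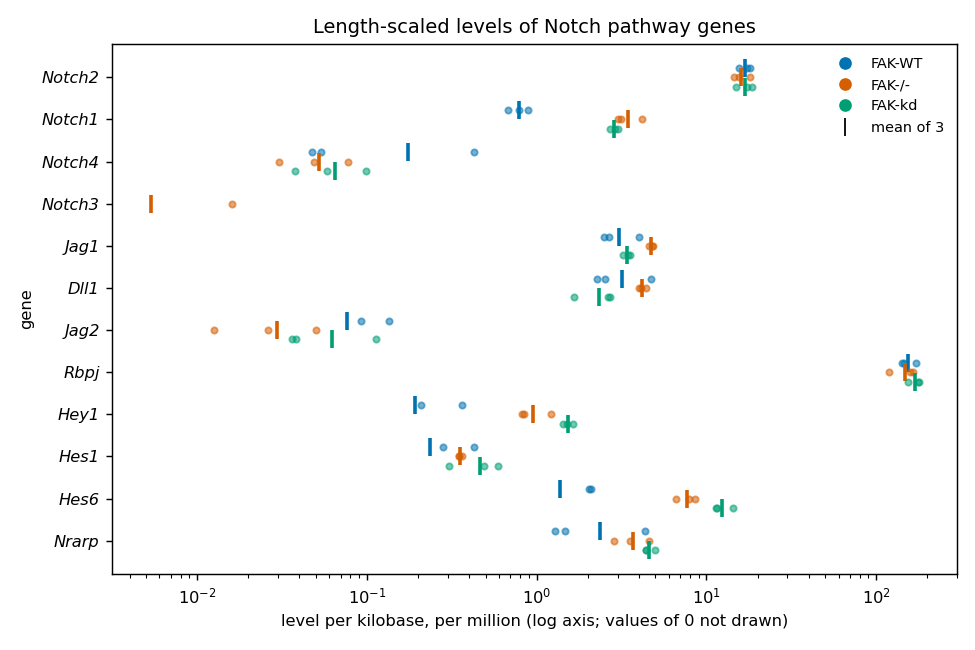
Length-scaled level (log axis, all genes of a library summing to 1000000) of 12 Notch pathway genes; points are libraries coloured by cell line, ticks are means of 3 libraries, and values of 0 are not drawn. *Rbpj* and *Notch2* lie to the right with the lines close together, and *Notch1*, *Hey1* and *Hes6* show FAK-WT cells to the left of the other lines.

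Beyond these genes, 63 further genes of the pathway were listed by role, of which 59 had a row and 51 reached a mean of 1 CPM in at least 1 line. This list was also chosen with earlier results of these data known, so its counts are description and not a test. None was past the threshold as higher in FAK-WT cells. The lower genes were *Aph1c*, *Tle2*, *Hes6* and *Nrarp* against FAK-/- cells (4 of 59, beside 3.06% of all genes) and the same 4 with *Aph1b* against FAK-kd cells (5 of 59, beside 2.89%). In FAK-kd over FAK-/- cells 0 of 59 passed by edgeR and by DESeq2, with 15 at an unadjusted p under 0.05 beside 20.4% of all genes, a share near that background. By adjusted p alone *Hes6* was higher, and *Furin*, *Ctbp2* and *Tle3* were lower (3 of 59, beside 3.88%). The median log2 fold change of the 51 expressed genes was -0.14 against FAK-/- and -0.06 against FAK-kd cells, where that of all genes at this level was -0.02 in both. For FAK-WT over FAK-/- cells, adjusted p alone gave 13 of 59 lower, beside 9.96% of all genes, and 3 higher. For FAK-WT over FAK-kd it gave 11 lower, beside 10.2% of all genes, and 3 higher. No share of all genes stands beside the higher counts of this rule. The excess of lower over higher genes was therefore not set against the whole table. Most fold changes in the pathway were thus short of the fold minimum, with more of the listed genes lower than higher by adjusted p in FAK-WT cells. The shares of all genes are not matched for level. Of all 19044 genes, 11244 reached a mean of 1 CPM in at least 1 line, a smaller part than the 51 of 59 here. Genes with few counts are seldom called, so a share among expressed genes would be higher.

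Among the further genes at 1 CPM or more, *Hes6* and *Nrarp* differed most in both comparisons of FAK-WT cells. *Hes6*, a Hes family member that is known to oppose HES1, gave 0, 1.25 and 1.24 CPM in FAK-WT libraries, 4.91, 4.10 and 5.51 in FAK-/- and 7.46, 6.98 and 8.67 in FAK-kd libraries. As for *Hey1*, the values stood in the order FAK-WT, FAK-/- and FAK-kd without overlap, but the count of 0 in FAK-WT replicate 1 has an upper limit of 4.64 CPM and adds nothing to it. Its log2 fold change was -2.00 ± 0.23 against FAK-/- (edgeR adjusted p = 1.74e-05), -2.66 ± 0.23 against FAK-kd (adjusted p = 9.75e-07) and 0.67 ± 0.18 in FAK-kd over FAK-/- cells (adjusted p = 0.0376). This last adjusted p was above 0.05 with any single library left out other than FAK-/- replicate 3 or FAK-WT replicate 1, and was highest, at 0.232, without FAK-kd replicate 3. *Nrarp*, a feedback inhibitor induced by Notch, gave 5.04, 1.49 and 1.73 CPM in FAK-WT cells, the first on 4 counts. It gave 4.29, 3.39 and 5.73 CPM in FAK-/- and 5.52, 5.18 and 5.86 CPM in FAK-kd cells. The deep FAK-WT libraries were thus below all others. *Nrarp* had a log2 fold change of -1.37 ± 0.28 against FAK-/- cells (adjusted p = 0.00270) and -1.67 ± 0.28 against FAK-kd cells (adjusted p = 0.000513). Without FAK-WT replicate 2 the first was -1.15 with an adjusted p of 0.0551. *Hey2* had no row.

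**Figure D4:**
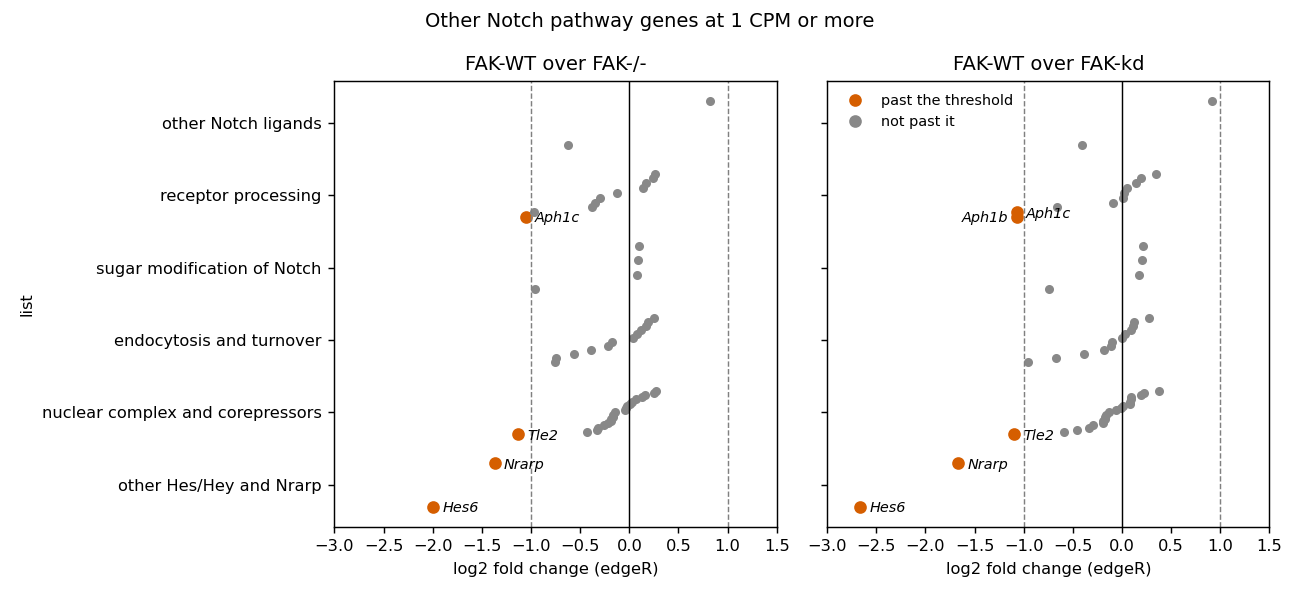
Log2 fold change (edgeR, x axis) of the 51 further pathway genes at 1 CPM or more, by role, for FAK-WT over FAK-/- (left) and over FAK-kd cells (right); orange points are past the threshold and dashed lines mark a log2 fold change of 1 in size. The called genes all lie on the lower side, with *Hes6* farthest at -2.00 and -2.66, and most grey points lie near 0.

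*Rbpj*, the DNA-binding partner of the receptor, was abundant at 357 to 423 CPM in FAK-WT libraries, 315 to 421 in FAK-/- and 407 to 446 in FAK-kd libraries. *Rbpj* had log2 fold changes of -0.02 ± 0.10, -0.20 ± 0.10 and 0.18 ± 0.10 in the 3 comparisons, none past an adjusted p of 0.05. *Tle2*, a Groucho-type corepressor, had a log2 fold change of -1.13 ± 0.22 against FAK-/- and -1.09 ± 0.22 against FAK-kd cells (edgeR adjusted p = 0.00163 and 0.00198). It fell short of the fold minimum against FAK-/- cells without FAK-/- replicate 3 (-0.89) or FAK-WT replicate 3 (-0.94), and against FAK-kd cells without FAK-WT replicate 3 (-0.90) or FAK-kd replicate 2 (-0.99). *Aph1b* and *Aph1c*, which encode gamma-secretase subunits, had log2 fold changes of -0.97 ± 0.23 and -1.05 ± 0.26 against FAK-/- and -1.07 ± 0.23 and -1.07 ± 0.26 against FAK-kd cells. About 24.8% and 25.01% of their 31-base words occur in another gene, so the split of reads between these paralogs is uncertain. *Aph1c* was not called without FAK-WT replicate 2 (-0.86 in both comparisons) or, against FAK-kd cells, without FAK-kd replicate 3 (-0.93). *Aph1b* was not called against FAK-kd cells without FAK-WT replicate 3 (-0.87), and was called against FAK-/- cells without FAK-/- replicate 3 (-1.16), FAK-WT replicate 1 (-1.01) or FAK-WT replicate 2 (-1.09). The third paralog, *Aph1a*, was far more abundant, at a mean of 123 CPM in FAK-WT and 111 in FAK-/- cells. *Dll4*, a ligand best known from endothelial tip cells, had at most 2 counts in any library.

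*Lfng* and *Dtx4* were chosen after their values were seen. *Lfng*, a glycosyltransferase that alters how Notch receptors respond to their ligands, gave 6.29, 7.40 and 7.41 CPM in FAK-WT libraries, 11.3, 14.1 and 17.4 in FAK-/- and 14.2, 11.8 and 11.0 in FAK-kd libraries. FAK-WT libraries were below all others. Its log2 fold change was -0.96 ± 0.16 against FAK-/- (edgeR adjusted p = 0.000666) and -0.74 ± 0.16 against FAK-kd cells (adjusted p = 0.00440), short of the fold minimum in both, though it was past it against FAK-/- cells without FAK-/- replicate 1 (-1.09). *Dtx4*, a Deltex ubiquitin ligase of the pathway, had log2 fold changes of -0.75 ± 0.11 and -0.95 ± 0.11 in the same comparisons (adjusted p = 0.000159 and 1.43e-05), also short of the minimum.

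The profile of *Notch1* over the 9 libraries was most like those of *Zfp503* (Pearson r = 0.995 on log2 CPM), *Letmd1* (r = 0.993) and *Clic1* (r = 0.992). *Zfp503*, a zinc-finger repressor gene, had a mean of 22.7 CPM in FAK-WT libraries, 70.3 in FAK-/- and 65.1 in FAK-kd libraries. *Clic1*, a chloride channel gene, had a mean of 369 CPM in FAK-WT libraries, 593 in FAK-/- and 565 in FAK-kd libraries. *Letmd1* had 1 count in FAK-WT replicate 1. Of 10467 genes compared, 189 had an r above 0.95, so many genes share this contrast between FAK-WT cells and the other lines. The points share libraries and depth, and the values describe these 9 libraries only.

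Markers of other cell types that use Notch were measured alongside. Of 6 mural cell markers, which include genes linked to *Notch3*, 5 had a row, with a summed level of 83.1 to 108 CPM in FAK-WT libraries, 116 to 161 in FAK-/- and 137 to 201 in FAK-kd libraries. *Cspg4* was the main part of this sum. Its log2 fold change in FAK-WT cells was -0.22 ± 0.15 against FAK-/- (edgeR adjusted p = 0.372) and -0.59 ± 0.15 against FAK-kd cells (adjusted p = 0.0118), short of the fold minimum. *Pdgfrb* was lower in FAK-WT cells (log2 fold change -2.04 ± 0.17 and -2.40 ± 0.17), *Des* was higher, and the defining marker *Rgs5* had at most 1 count in any library. Of 8 endothelial markers 6 had a row, with a sum of 1.85 to 2.71 CPM in FAK-WT libraries, 0.929 to 1.41 in FAK-/- and 0.659 to 0.849 in FAK-kd libraries. *Cdh5* was higher in FAK-WT cells, at 1.24 to 1.97 CPM, while *Pecam1* reached at most 0.315 and *Kdr* 0.0899 CPM. Leukocyte markers (4 of 7 with a row) summed to 3.36 CPM or less, and none passed the threshold. All 9 simple epithelial and mesenchymal markers had a row. *Snai2* passed as higher in FAK-WT over FAK-/- cells, by 1.21 ± 0.11 on the log2 scale (edgeR adjusted p = 1.05e-06, beside 5.38% of all genes called). By adjusted p alone 2 were lower and 1 higher against FAK-/-, and 3 and 1 against FAK-kd cells, beside 9.96% and 10.2% of all genes lower. In FAK-kd over FAK-/- cells *Krt8* passed as higher, beside 2.01% called. Basal keratinocyte markers (6 of 8 with a row) summed to 228 to 243 CPM in FAK-WT libraries, 364 to 385 in FAK-/- and 347 to 355 in FAK-kd libraries, and none passed. *Itga6* was the main part. Its log2 fold change in FAK-WT cells was -0.75 ± 0.06 against FAK-/- (edgeR adjusted p = 7.66e-07) and -0.61 ± 0.06 against FAK-kd cells (adjusted p = 7.40e-06), short of the fold minimum. Of 14 genes of epidermal differentiation, a process that Notch is known to promote, 10 had a row, with a sum of 182 to 186 CPM in FAK-WT, 129 to 150 in FAK-/- and 147 to 148 in FAK-kd libraries. Their median log2 fold change was 0.05 against FAK-/- and 0.27 against FAK-kd cells, but only 3 of the 10 reached a mean of 1 CPM in any line. Over those 3 the median was -0.44 and -0.06. *Ivl*, *Lor* and *Sprr1a* passed as lower in FAK-WT over FAK-/- cells (3 of 10, beside 3.06% of all genes), although *Sprr1a* overlapped through 1 count in FAK-WT replicate 1. Against FAK-kd cells *Lor* and *Sprr1a* passed as lower (2 of 10, beside 2.89%). *Ivl* and *Lor* stayed below a mean of 1 CPM in every line, a level at which FAK-WT rests on 2 libraries. *Cdkn1a*, a cell cycle inhibitor gene and most of the sum, was higher in FAK-WT over FAK-/- cells by 0.50 ± 0.07 on the log2 scale (edgeR adjusted p = 0.000131), short of the fold minimum. In these bulk samples fewer cells of a type and less RNA per cell cannot be told apart, and the part of the markers that moved in the Notch values was not tested.

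**Figure D5:**
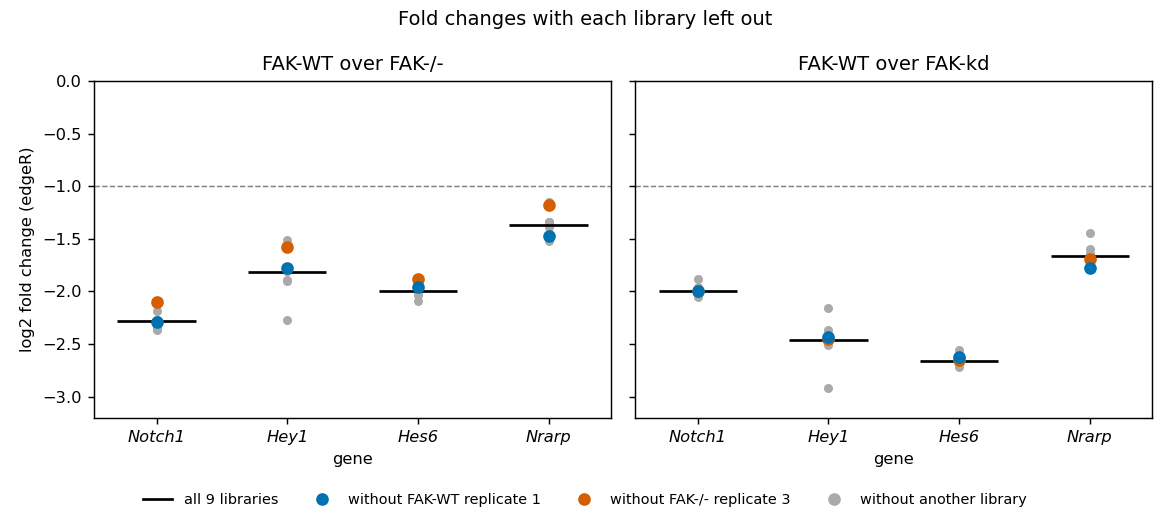
Log2 fold change (edgeR, y axis) of *Notch1*, *Hey1*, *Hes6* and *Nrarp* with all 9 libraries (bars) and with each library left out (points), for FAK-WT over FAK-/- (left) and over FAK-kd cells (right); the dashed line marks -1. All points stay below -1, and *Hey1* spreads most, from -2.27 to -1.51 against FAK-/- cells.

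The counts of called genes were also taken without the libraries that stood apart. Without FAK-WT replicate 1, and without both it and FAK-/- replicate 3, *Notch1* and *Hey1* were again the genes past the threshold in both comparisons of FAK-WT cells. Without both libraries *Notch1* had a log2 fold change of -2.11 against FAK-/- cells and *Hey1* of -1.55, and 0 of 9 passed in FAK-kd over FAK-/- cells. The lower level of *Notch1* in FAK-WT cells was thus of similar size without the shallow library, as the plot of left-out libraries shows.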

How the data were processed

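RNA-seq libraries of 3 mouse SCC lines (FAK-WT, FAK-/-, FAK-kd) were analysed, with 3 biological replicates per line and groups taken from the sample labels. The authors pseudoaligned paired-end reads with kallisto (0.43.1 in the submitters' processing notes, which also name GRCm38 and mm10) and summarized transcripts to gene level by tximport. The deposited values are kallisto's estimated counts as whole numbers, not scaled to library size. The transcriptome release is not given in the sources used here, and without the transcript lengths behind each library no length offsets were entered.

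Differential expression was tested with edgeR 4.0.16 (R 4.3.3): TMM, estimateDisp, glmQLFit and glmQLFTest on all 19044 genes and 9 libraries, with cell line as the only factor and Benjamini–Hochberg adjustment over all genes. Log2 fold changes carry their SE. CPM carry exact Poisson 95% intervals and shares Wilson intervals. These cover counting error only. Single genes were compared with an exact permutation test (scipy 1.17.1). Symbols and lengths came from GENCODE for 18856 identifiers. The alternatives were DESeq2 1.42.0, other scalings, filters and thresholds, a replicate block, fits of 2 groups, other length measures and each library left out. Leaving out 2 libraries together was chosen after the data were seen. The steps were tested on simulated data.

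The 10 genes, the pathway lists and the marker lists were chosen with earlier results of these data known. Named beyond the 10 were pathway genes past the threshold in at least 1 comparison with a mean of at least 1 CPM in 1 line, *Rbpj*, *Nrarp*, *Hey2* and *Dll4* in any case, defining markers, *Ptk2* and the 3 genes most correlated with the called gene of largest fold change that had a mean of at least 1 CPM in every line. *Lfng*, *Dtx4*, *Aph1a*, *Furin*, *Ctbp2*, *Tle3* and the single markers named as moved or as the main part of a sum are outside this rule, chosen with their values known.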

Additional observations from a re-analysis of the deposited data

How the results depend on the processing

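In FAK-WT over FAK-/- cells the 2 calls became 0 with at least 10 counts in every library, a filter that only *Notch2* passes, 4 with no fold-change minimum, 1 with glmTreat against a log2 fold change of 1, and 1 to 2 over the left-out libraries. FAK-WT over FAK-kd gave 2 in every leave-one-out fit and 0 with at least 10 counts in every library. FAK-kd over FAK-/- gave 0 throughout, except 2 with no fold-change minimum. *Hey1* against FAK-/- cells lost its call with glmTreat (adjusted p = 0.216). The pathway genes past the threshold (4, 5 and 0) became 16, 14 and 4 with no fold-change minimum, 1 in both FAK-WT comparisons with glmTreat, and 0 in both with at least 10 counts in every library. Against FAK-kd cells they became 3 without FAK-WT replicate 3. Over all genes the 1024, 1001 and 382 calls became 160, 131 and 50 with that minimum count, 3422, 3376 and 1494 with no fold-change minimum and 433, 450 and 117 with glmTreat.

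Signs turned only for values near 0. *Notch2* in FAK-WT over FAK-/- cells was 0.0061 with DESeq2, 0.0056 with its size factors, 0.0088 with library size, 0.0092 with filterByExpr, 0.020 with only the 2 groups, 0.088 without both FAK-WT replicate 1 and FAK-/- replicate 3, and -0.067 to 0.098 over the left-out libraries. It ranged from -0.100 to 0.013 in FAK-WT over FAK-kd and from -0.021 to 0.17 in FAK-kd over FAK-/- cells, and *Dll1* in FAK-WT over FAK-kd from -0.066 to 0.25. The cause was not tested. The order of the members by length-scaled level was the same with both other length or scaling measures. A replicate block gave 2, 2 and 0 calls among the members in the 3 comparisons. No pairing by replicate number was seen, since deviations from line means correlated with a mean r of -0.0077 over 9 same-number pairs and 0.0035 over 18 others. With 3 libraries per line, and FAK-WT replicate 1 shallow, these values cannot exclude a pairing. FAK-WT replicate 1 limits genes under 3.78 CPM.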
